A study of Mus musculus with 12 samples.

Results

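The Slc25 family of mitochondrial carriers was examined in 12 mouse hearts. Its members were taken as every row of the deposited count table whose symbol starts with Slc25a, which gave 47 of the 25171 loci, so membership went by symbol and used no measured value. All 47 are protein-coding genes of GENCODE M21 (GRCm38). Of these, 40 had enough counts to be tested in both models. The members Slc25a18, Slc25a21, Slc25a41, Slc25a43, Slc25a48 and Slc25a54 did not pass the filter on low counts in any comparison, and Slc25a31 passed it only between the control groups.

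Most carriers of this family sit in the inner mitochondrial membrane. They exchange ADP for ATP, bring in phosphate, and move the acids, amino acids, carnitine esters, nucleotides and cofactors that oxidative metabolism needs. The heart draws most of its ATP from mitochondria, and the ADP/ATP carrier and the phosphate carrier work together to feed ATP synthase and to export its product. Carriers have no cleaved targeting sequence as a rule and are guided by small TIM chaperones to the TIM22 complex for insertion.

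Heart RNA was sequenced from 4 groups of 3 mice. Every mouse had a NOTCH2NLC insert with 98 GGC repeats in Rosa26, silenced by a stop sequence between loxP sites. EIIa-tg mice also carried EIIa-Cre, which acts in all tissues, and EIIa-ctl littermates lacked this Cre; both were 30 days old. Myh6-tg and Myh6-ctl mice both carried, by their labels, Myh6-creERT2, a tamoxifen-dependent Cre under a cardiomyocyte promoter, and received 3 injections (75 mg per kg) from day 60, of tamoxifen in Myh6-tg and of corn oil in Myh6-ctl mice, with collection at day 90. The presence of Cre cannot be told apart from the repeat protein in the first model, nor can tamoxifen in the second. Esr1 RNA also differed between the Myh6 groups (below), so a difference in Cre itself cannot be told apart there either. Between the models, age, Cre line and injection all differ. The labels spell the first model E2a and name the mice as biological replicates, and which mice shared a litter is not stated.

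Between 38343106 and 50969834 reads were counted per heart. Transcripts of the 13 mitochondrially encoded proteins made up 15.5% to 18.6% of the counts in Myh6-tg hearts and 28.5% to 38.3% in the other 9 hearts. Levels per heart are therefore given below as normalized CPM, counts scaled to library size after TMM scaling over all 12 hearts, and FPKM (scaled by transcript length and total) is used to rank genes within a group, for the shares of paralogue pairs and for an alternative test with limma. Esr1, part of which is used in CreERT2, had 1031 to 2331 normalized CPM in Myh6-ctl hearts and 1.00 to 2.52 in Myh6-tg hearts, although the labels give that Cre to both groups. The cause was not tested. The Myh6 groups are named by their labels throughout, and every direction in the Myh6 comparison rests on those labels. The labels give EIIa-tg replicates 2 and 3 a differently spelled genotype from replicate 1, and the extraction text names brain. Every one of the 8 cardiomyocyte markers checked was present in all groups, and their summed level was 36947 to 44459 normalized CPM in EIIa-ctl, 18176 to 32641 in EIIa-tg, 28773 to 39207 in Myh6-ctl and 10331 to 30593 in Myh6-tg hearts. In whole hearts, fewer cells of a type and less RNA per cell cannot be told apart.

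Genes were tested with edgeR, and a gene was called when its p, adjusted over all genes tested, was under 0.05. In EIIa-tg hearts 8 of 40 carriers were lower and 4 were higher, against 8.3% lower and 8.65% higher among all 14908 genes tested. In Myh6-tg hearts 10 of 40 were lower, against 9.38% of 15298 genes, and 0 were higher, against 8.96%. At an unadjusted p under 0.05, 18 carriers were lower and 2 higher in Myh6-tg hearts, against 5210 of 15298 genes in either direction. DESeq2 also called 0 carriers higher, against 1818 of 17678 genes. The median log2 fold change of the tested carriers was -0.21 in EIIa-tg and -0.37 in Myh6-tg hearts, against 0.02 and 0.03 over all genes tested. On the FPKM scale with limma, 10 carriers were lower and 3 (Slc25a1, Slc25a17 and Slc25a28) were higher in Myh6-tg hearts, against 900 and 3328 of 12947 genes. That scale moved the median of all genes to 0.34.

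The calls did not rest equally on all hearts. In the EIIa model, leaving out EIIa-ctl replicate 1, EIIa-ctl replicate 3, EIIa-tg replicate 1 or EIIa-tg replicate 3 left 0 carriers called in either direction. Over all genes, in that order, 0, 0, 0 and 29 were lower and 0, 1, 0 and 104 higher. A fit of all 12 hearts together also called 0 carriers in this model, and 51 lower and 176 higher of 15929 genes. Leaving out EIIa-tg replicate 2 raised the number of lower carriers to 14 and that of all lower genes to 2110 of 15310. In the Myh6 model, 4 carriers were called lower without Myh6-tg replicate 2 or without replicate 3, 5 without Myh6-ctl replicate 1 or without replicate 2, and 15 without Myh6-tg replicate 1. In that order, 486 of 15753, 471 of 15713, 411 of 15931, 913 of 15921 and 2226 of 15967 genes were lower. Summed over all 47 genes, the family had 7195 to 8553 normalized CPM in EIIa-ctl, 5139 to 6722 in EIIa-tg, 5272 to 7995 in Myh6-ctl and 2524 to 4505 in Myh6-tg hearts, so the ranges did not overlap within either model. Slc25a4 and Slc25a3 alone held 57.7% to 74.4% of the carrier counts of a heart, so this sum mainly reflects those genes.

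**Figure D1:**
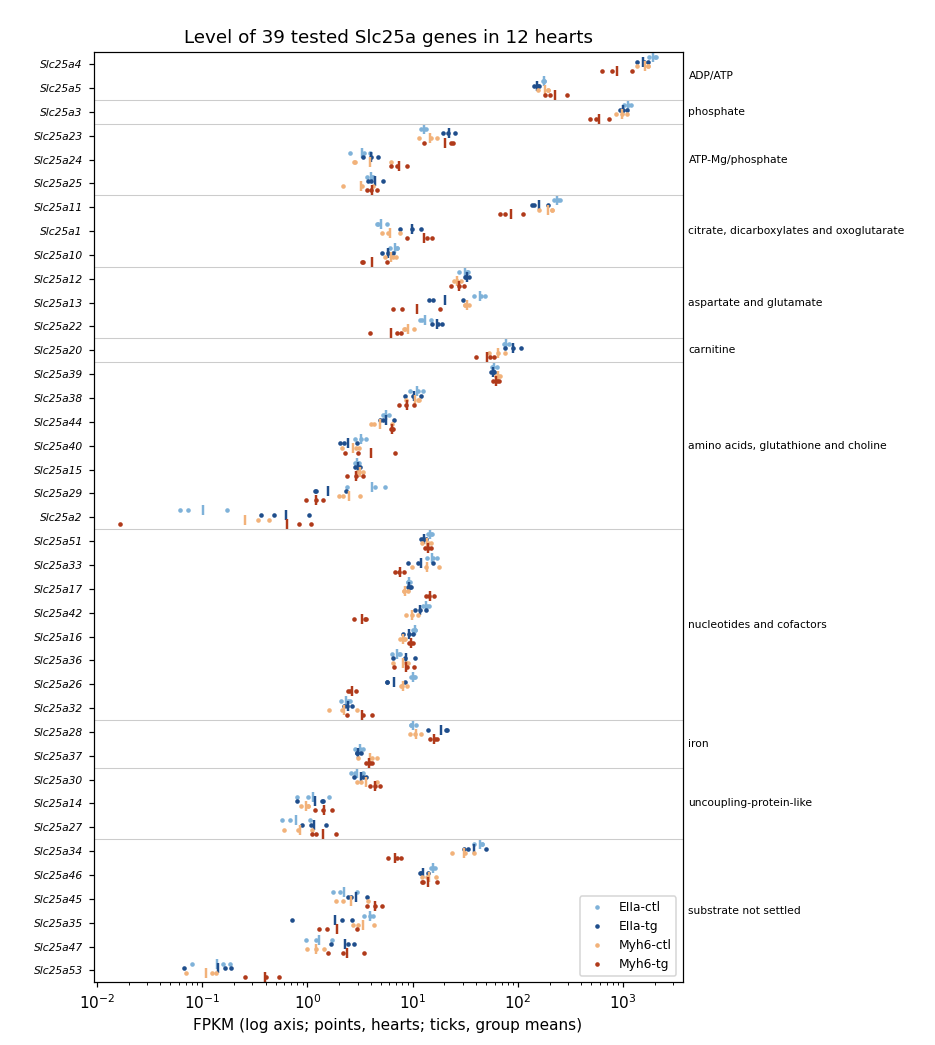
FPKM of 39 of the 40 tested carriers in each heart (points, log axis) with group means (ticks), grouped by substrate. Slc25a4 and Slc25a3 stand above all others, and Slc25a34, Slc25a42 and Slc25a26 show the Myh6-tg hearts apart from the rest. Slc25a2 in Myh6-ctl replicate 1 is listed at 0 and has no point on the log axis.

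Levels of the carriers spanned several orders of magnitude. In EIIa-ctl hearts Slc25a4 had 1935 ± 144 FPKM (SD, n = 3), Slc25a3 1109.8 ± 85.2, Slc25a11 237 ± 15.5, Slc25a5 176 ± 2.35, Slc25a20 77.3 ± 4.18 and Slc25a39 59.3 ± 3.51, and each of these steps was larger than the SDs. The next pair, Slc25a13 (43.7 ± 5.14 FPKM) and Slc25a34 (43.3 ± 4.36), did not differ beyond their spread. Slc25a12 came next at 31.3 ± 3.34 FPKM, and further down the order were Slc25a46 at 15.6 ± 0.581, Slc25a23 at 12.7 ± 0.725 and Slc25a28 at 10.02 ± 0.613. In Myh6-tg hearts the order changed below the first 2 places. Slc25a4 (876 ± 301 FPKM) stayed above Slc25a3 (589 ± 127) in each heart, at 1212 against 729, 787 against 554 and 629 against 483. Slc25a5 (225 ± 58.6) stood above Slc25a11 (85.2 ± 24.2), and Slc25a34 had 6.86 ± 0.956. Together Slc25a4 and Slc25a3 took 57.7% to 74.4% of all carrier counts of a heart.

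The ADP/ATP carriers Slc25a4 (Ant1, the heart and muscle form; chromosome 8, 46206797 to 46211284, minus strand) and Slc25a5 (Ant2, found in dividing and many other cells; chromosome X, 36795651 to 36798807, plus strand) are close paralogues, and their separation depends on sequence. Their coding sequences in GENCODE M21 transcripts are both 897 bases long, 695 bases are the same (77.5% identity), and the longest shared run is 20 bases, against reads of 150 bases. Only 60-base windows that start at the first base of a codon were compared. Shown are those with the fewest differences, 6 between coding bases 64 and 123, and with the most, 24 between bases 397 and 456. Capitals mark the bases that differ.
Slc25a4, 64 to 123: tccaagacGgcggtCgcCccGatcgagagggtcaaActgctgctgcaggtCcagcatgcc
Slc25a5, 64 to 123: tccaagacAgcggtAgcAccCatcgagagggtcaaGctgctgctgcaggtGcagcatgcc
Slc25a4, 397 to 456: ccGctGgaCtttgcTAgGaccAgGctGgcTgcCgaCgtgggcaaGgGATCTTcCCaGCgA
Slc25a5, 397 to 456: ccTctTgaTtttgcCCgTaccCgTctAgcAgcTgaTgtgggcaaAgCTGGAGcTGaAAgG
GENCODE M21 also holds a processed pseudogene, Slc25a5-ps, which is not a row of the table, and whether its copy drew reads from Slc25a5 was not tested.

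Slc25a4 had 3891, 4114 and 2545 normalized CPM in the Myh6-ctl hearts and 2182, 1284 and 945 in the Myh6-tg hearts. All Myh6-tg values lay below all control values, but the spread within both groups was wide and the call was missed (log2 fold change -1.26, SE 0.38, adjusted p = 0.0547). A fit blocked on replicate number, a pairing that no label gives, called it (adjusted p = 0.0153). In EIIa-tg hearts Slc25a4 had 3091, 3422 and 2444 normalized CPM against 4499, 3701 and 4496, again without overlap and without a call (log2 fold change -0.51, SE 0.18, adjusted p = 0.0875).

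Slc25a5 fell in EIIa-tg hearts, from 253, 239 and 252 to 181, 199 and 182 normalized CPM (log2 fold change -0.41, SE 0.09, adjusted p = 0.0278). In the Myh6 model the groups overlapped, with 279, 299 and 190.5 normalized CPM in controls and 338, 212 and 175 in Myh6-tg hearts (log2 fold change -0.08, SE 0.30, adjusted p = 0.875). On the FPKM scale the sign was the other one, with means of 181 ± 21.4 FPKM in controls and 225 ± 58.6 in Myh6-tg hearts. The share of Slc25a5 in the summed FPKM of the pair was 10.03%, 10.1% and 10.4% in Myh6-ctl and 19.4%, 20.4% and 22.3% in Myh6-tg hearts. The means differed by 10.5 percentage points and the groups did not overlap (exact permutation test, 2-sided, p = 0.1, which 3 against 3 hearts cannot go below; adjusted over 9 tests, 0.15). In EIIa-tg hearts the share was 8.31%, 8.29% and 10.3% against 8.03%, 9.12% and 8.003%, and the groups overlapped. Computed from counts, the Myh6 difference was 7.60 points. Among marker lists in Myh6-tg hearts, 3 of 7 fibroblast markers were called higher (Col1a1, Col1a2 and Pdgfra), against 8.96% of all genes. The whole list summed to 2568, 5667 and 6098 normalized CPM in Myh6-tg replicates 1, 2 and 3, against 1911 to 2405 in Myh6-ctl hearts. Another marker of that list, Lum, pointed the other way at log2 -0.79 (adjusted p = 0.198, and 0.0218 with the block). The part of these markers in the share of Slc25a5 was not tested.

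Slc25a3, which brings in the phosphate for ATP synthesis, fell in Myh6-tg hearts. It had 1535, 1835 and 1129.8 normalized CPM in Myh6-ctl hearts and 928, 637 and 512 in Myh6-tg hearts (log2 fold change -1.12, SE 0.31, adjusted p = 0.0426). The highest Myh6-tg heart was below the lowest control, yet only 1 of the 6 fits that leave out a heart still called it. In EIIa-tg hearts Slc25a3 overlapped with its controls, at 1372, 1517 and 1167 against 1755, 1506 and 1846 normalized CPM (adjusted p = 0.157).

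The calcium-regulated ATP-Mg/phosphate carriers adjust the adenine nucleotide pool of the matrix. Of the 3 tested, Slc25a23 rose in EIIa-tg hearts, from 44.4, 44.9 and 44.3 to 60.6, 56.7 and 65.8 normalized CPM (log2 fold change 0.45, SE 0.09, adjusted p = 0.0209). Control values were tight, and all EIIa-tg hearts lay above them. In the Myh6 model Slc25a23 overlapped, at 41.3, 50.7 and 50.4 in controls and 37.6, 55.4 and 51.4 in Myh6-tg hearts (adjusted p = 0.955). Slc25a24 and Slc25a25 were not called in either model.

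**Figure D2:**
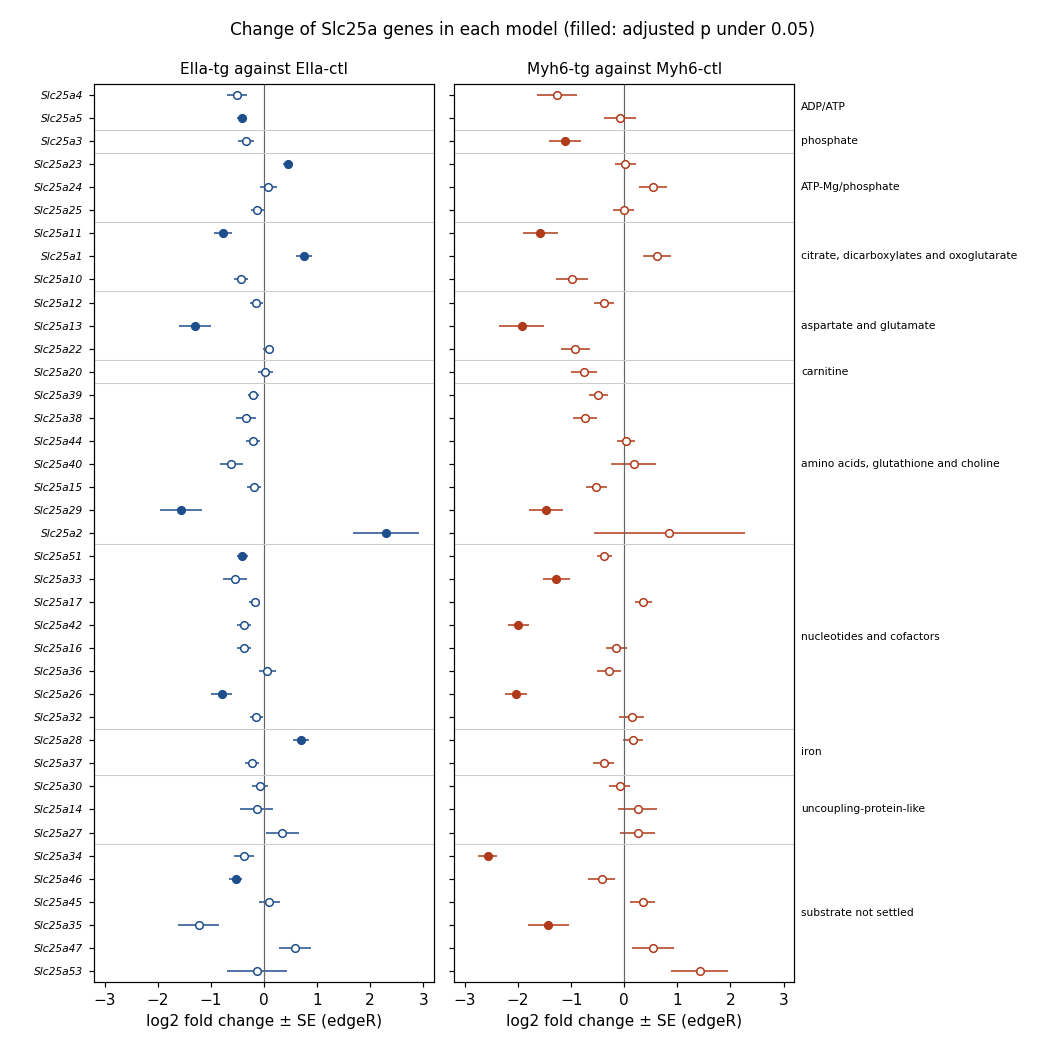
Log2 fold change with its standard error (edgeR, 3 against 3 hearts) of 39 of the 40 tested carriers in each model, grouped by substrate, with filled points for an adjusted p under 0.05. In EIIa-tg hearts filled points lie on both sides of 0, and in Myh6-tg hearts they all lie on the lower side, with Slc25a34 (-2.57), Slc25a26 (-2.04) and Slc25a42 (-1.99) the farthest out.

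The carriers of the malate-aspartate shuttle exchange oxoglutarate for malate (Slc25a11) and aspartate for glutamate (Slc25a12 and Slc25a13), and so bring the reducing power of cytosolic NADH into the matrix. Slc25a11 fell in both models. It had 486, 407 and 487 normalized CPM in EIIa-ctl and 239.9, 342 and 227 in EIIa-tg hearts (log2 fold change -0.77, SE 0.17, adjusted p = 0.027), and 418, 445 and 269 in Myh6-ctl and 180.2, 110.03 and 89.5 in Myh6-tg hearts (log2 fold change -1.58, SE 0.32, adjusted p = 0.0166). No heart of a transgenic group reached the lowest of its controls. The difference between the changes in the models was not called (log2 -0.81, adjusted p = 0.275).

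Slc25a13 (citrin) fell while Slc25a12 (aralar) was not called. Slc25a13 had 159.7, 128 and 171 normalized CPM in EIIa-ctl and 45.6, 96.1 and 44.5 in EIIa-tg hearts (log2 fold change -1.30, SE 0.29, adjusted p = 0.0269), and 123, 122 and 95.9 in Myh6-ctl and 52.6, 17.3 and 19.4 in Myh6-tg hearts (log2 fold change -1.93, SE 0.43, adjusted p = 0.0209). One heart of each transgenic group, EIIa-tg replicate 2 and Myh6-tg replicate 1, was well above the other two but below every control. Slc25a12 had 249.5, 189 and 239 normalized CPM in EIIa-ctl and 207, 206 and 203 in EIIa-tg hearts, and 216, 193 and 164 in Myh6-ctl and 139, 165 and 138 in Myh6-tg hearts, with overlap in both models (log2 fold changes -0.14 and -0.37, adjusted p = 0.435 and 0.205). Its mean FPKM was slightly higher in both transgenic groups (31.3 to 32.6 in the EIIa model and 26.6 to 27.3 in the Myh6 model), a difference within the SDs. The share of Slc25a13 in the FPKM of the pair was 56.9%, 58.3% and 59.6% in EIIa-ctl and 30.9%, 49.2% and 31.1% in EIIa-tg hearts, a difference of -21.2 points. In the Myh6 model it was 54.02%, 56.5% and 54.7% against 43.9%, 17.6% and 22.3%, a difference of -27.2 points. Neither pair of groups overlapped (exact permutation p = 0.1, adjusted 0.15). The coding sequences of the pair are 71.5% identical with no shared run above 21 bases.

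Other carriers of dicarboxylates and glutamate differed in direction. Slc25a1, which exports citrate to the cytosol, rose in EIIa-tg hearts (9.27, 10.3 and 8.78 to 16.8, 12.9 and 18.4 normalized CPM, log2 fold change 0.76, SE 0.15, adjusted p = 0.022), and its 13.9 to 20.0 in Myh6-tg hearts overlapped with 9.47 to 15.5 in Myh6-ctl hearts (adjusted p = 0.139). Slc25a10, the dicarboxylate carrier, did not reach a call in EIIa-tg (log2 fold change -0.43, adjusted p = 0.0551) or Myh6-tg hearts (-0.98, adjusted p = 0.0591). The glutamate carrier Slc25a22 had 33.3, 26.3 and 21.3 normalized CPM in Myh6-ctl and 9.78, 16.8 and 16.1 in Myh6-tg hearts, without overlap and just short of a call (log2 fold change -0.92, SE 0.27, adjusted p = 0.0502). In EIIa-tg hearts its log2 fold change was 0.09 (adjusted p = 0.583).

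Slc25a20, which carries acylcarnitines into the matrix for fatty acid oxidation, was the fifth carrier by mean FPKM. It had 172, 147 and 151 normalized CPM in EIIa-ctl and 193, 138 and 148 in EIIa-tg hearts, which overlapped (log2 fold change 0.03, adjusted p = 0.911). With Myh6-creERT2 it had 157, 143 and 93.3 in controls and 67.2, 89.8 and 75.0 in Myh6-tg hearts. These did not overlap, and the call was missed (log2 fold change -0.76, SE 0.24, adjusted p = 0.0626).

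**Figure D3:**
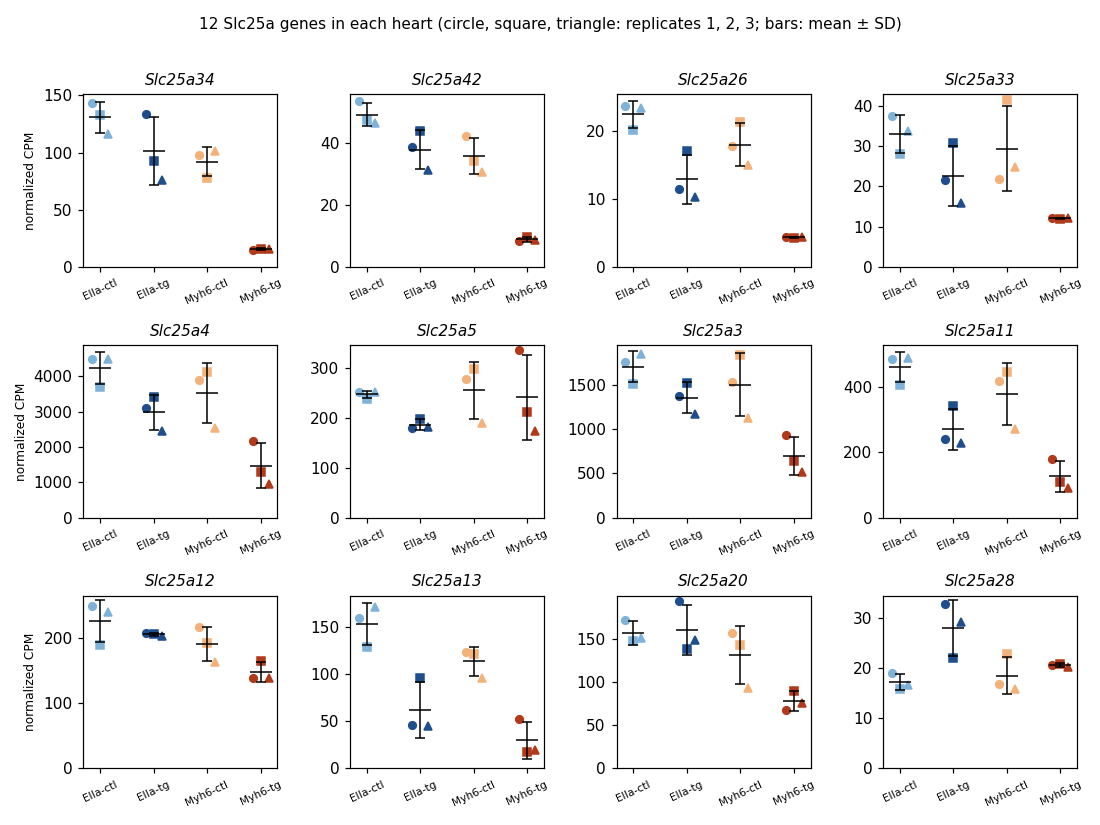
Normalized CPM (axes start at 0) of 12 carriers in each heart, with replicates 1, 2 and 3 as circle, square and triangle and bars for the mean and SD. The Myh6-tg hearts lie close together for Slc25a34, Slc25a42 and Slc25a26 and are spread for Slc25a4, Slc25a3, Slc25a11 and Slc25a13.

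Of the carriers of nucleotides and cofactors, the group with the most tested members, 3 of 9 were lower in EIIa-tg (8.3% of all genes) and 4 of 9 in Myh6-tg hearts (9.38% of all genes), and 3 of the latter passed the stricter limit for a DEG (a change of 1 log2 unit or more, with an adjusted p under 0.01). In all, 4 carriers were lower DEGs in Myh6-tg hearts, against 2.05% of genes tested, and 0 were higher DEGs, against 1.92%. With the replicate number as a block, 11 carriers were called lower (11.2% of genes) and 7 were lower DEGs (3.6%). In EIIa-tg hearts 0 carriers were DEGs, as were 0 of all genes (0%), while DESeq2 gave 2 carriers as DEGs, beside 272 lower and 564 higher DEGs of 16826 genes. With edgeR 19 of 40 carriers had an unadjusted p under 0.05, against 5204 of 14908 genes.

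Slc25a42, a carrier of coenzyme A and adenine nucleotides (chromosome 8, 70184340 to 70212305, minus strand), had 42.1, 34.2 and 30.7 normalized CPM in Myh6-ctl and 8.26, 9.81 and 8.76 in Myh6-tg hearts. It was 3.98-fold lower with no overlap (log2 fold change -1.99, SE 0.19, adjusted p = 0.00205). In EIIa-tg hearts it had 38.5, 43.6 and 31.1 against 53.3, 47.5 and 46.3, which was not called (log2 fold change -0.38, SE 0.14, adjusted p = 0.0909).

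Slc25a26, which brings S-adenosylmethionine into the matrix for methylation (chromosome 6, 94500331 to 94604672, plus strand), fell in both models. It had 17.7, 21.2 and 14.99 normalized CPM in Myh6-ctl and 4.44, 4.23 and 4.43 in Myh6-tg hearts (4.11-fold lower, log2 fold change -2.04, SE 0.21, adjusted p = 0.00229). In the EIIa model it had 23.7, 20.2 and 23.3 in controls and 11.4, 16.97 and 10.2 in EIIa-tg hearts (log2 fold change -0.80, SE 0.19, adjusted p = 0.0318). The Myh6-tg hearts were nearly equal to each other, whereas EIIa-tg replicate 2 lay nearer to its controls than the other EIIa-tg hearts did.

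Other calls of the group were the pyrimidine nucleotide carrier Slc25a33 in Myh6-tg hearts (log2 fold change -1.28, adjusted p = 0.016) and the NAD carrier Slc25a51 in EIIa-tg hearts (-0.41, adjusted p = 0.0383). Slc25a17, which serves peroxisomes rather than mitochondria, had 21.05 to 21.5 normalized CPM in Myh6-tg hearts, above the 15.4 to 17.6 of Myh6-ctl hearts, without a call (log2 fold change 0.36, SE 0.16, adjusted p = 0.149).

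Slc25a34, an inner membrane carrier whose substrate is not settled (chromosome 4, 141618824 to 141623821, minus strand), had the lowest adjusted p of the family in Myh6-tg hearts. It had 97.8, 77.5 and 101 normalized CPM in Myh6-ctl and 14.5, 16.06 and 16.03 in Myh6-tg hearts, 5.93-fold lower (log2 fold change -2.57, SE 0.18, adjusted p = 0.00102). The Myh6-tg hearts lay within 2 units of each other and far below all 9 other hearts. In EIIa-tg hearts the values were 134, 93.1 and 76.5 against 143, 133 and 117, which overlapped (log2 fold change -0.38, SE 0.19, adjusted p = 0.202). Slc25a34, Slc25a42 and Slc25a26 were called in all 6 fits that leave out 1 heart of the Myh6 comparison.

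The difference between the models, tested in a fit of 12 hearts by subtracting the EIIa-tg change from the Myh6-tg change, was called lower for 3 of 40 carriers, against 2.27% of 15929 genes, and higher for 0, against 1.65%. These were Slc25a34 (log2 -2.20, SE 0.27, adjusted p = 0.00238), Slc25a42 (-1.62, SE 0.23, adjusted p = 0.00425) and Slc25a26 (-1.24, SE 0.28, adjusted p = 0.0278). With the replicate number as a block, Slc25a26 no longer passed (adjusted p = 0.0758), and it was called in 3 of the 12 fits that leave out a heart, while the other two were called in all 12. For carriers in the higher direction, 1 had an unadjusted p under 0.05, which was Slc25a17 (log2 0.53, adjusted p = 0.0984), and DESeq2 called that 1 carrier. In either direction 8 of 40 carriers had such an unadjusted p, against 3092 of 15929 genes.

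Between the control groups, Myh6-ctl against EIIa-ctl, edgeR called 0 of 41 carriers, against 0.0133% lower and 0.02% higher among 14990 genes. DESeq2 also called 0, and 5 carriers had an unadjusted p under 0.05, all of them lower in Myh6-ctl hearts (Slc25a34, Slc25a22, Slc25a42, Slc25a13 and Slc25a16). Over all genes 1700 of 14990 had such an unadjusted p, in either direction. Slc25a34 had a log2 fold change of -0.51 (SE 0.15, adjusted p = 0.252).

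Among carriers of amino acids, glutathione and choline, 1 of 7 tested was lower in each model (8.3% of all genes in EIIa-tg and 9.38% in Myh6-tg hearts), and 1 was higher in EIIa-tg hearts (8.65%). The lower one was Slc25a29 in both, the carrier of basic amino acids, with 12.7, 5.13 and 10.002 normalized CPM in EIIa-ctl and 2.47, 4.77 and 2.21 in EIIa-tg hearts (log2 fold change -1.56, SE 0.39, adjusted p = 0.035). In the Myh6 model it had 7.40, 5.39 and 3.91 in controls and 1.81, 2.04 and 2.16 in Myh6-tg hearts (log2 fold change -1.47, SE 0.33, adjusted p = 0.0212). Groups did not overlap in either model, although the EIIa-ctl hearts were spread widely. Slc25a2, an ornithine carrier, was called higher in EIIa-tg hearts at a level near the lower end of detection (0.137, 0.261 and 0.109 against 0.518, 0.675 and 1.34 normalized CPM, adjusted p = 0.0397). It had 6, 10 and 4 counts in the EIIa-ctl and 21, 34 and 60 in the EIIa-tg hearts, so it passed the filter on low counts through the group where it was higher, and a minimum of 1 CPM in 3 hearts left 3 carriers called higher in this model. Slc25a39, which brings glutathione into the matrix, had 129, 135 and 101 normalized CPM in Myh6-ctl and 86.2, 89.1 and 85.0 in Myh6-tg hearts, without a call (adjusted p = 0.0957), and was not called in EIIa-tg hearts (adjusted p = 0.208).

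The mitoferrins bring iron into the matrix for heme and iron-sulfur clusters. Slc25a28 (mitoferrin 2, the form of most tissues) rose in EIIa-tg hearts, from 19.1, 15.9 and 16.7 to 32.8, 21.97 and 29.3 normalized CPM (log2 fold change 0.70, SE 0.16, adjusted p = 0.0269), with all EIIa-tg hearts above the controls. In Myh6-tg hearts it had 20.7, 20.9 and 20.3 against 16.9, 22.8 and 15.8 (adjusted p = 0.607). Slc25a37 (mitoferrin 1, known for its role in red cell precursors) was not called in EIIa-tg (log2 fold change -0.23, adjusted p = 0.24) or Myh6-tg hearts (-0.39, adjusted p = 0.22). Its share of the FPKM of the pair was 20.9%, 24.6% and 26.1% in EIIa-ctl and 12.3%, 18.5% and 12.3% in EIIa-tg hearts (difference -9.51 points, no overlap, exact permutation p = 0.1, adjusted 0.15; -14.7 points from counts). For Myh6-ctl it was 32.4%, 20.0% and 27.9% and for Myh6-tg 22.1%, 17.98% and 18.6%, which overlapped (difference -7.22 points, exact permutation p = 0.2, adjusted 0.257). Erythroid markers summed to 1543 to 2608 normalized CPM in EIIa-ctl and 198 to 1270.5 in EIIa-tg hearts. In the Myh6 model the sums were 5221 to 8149 in Myh6-ctl and 1866 to 3450.2 in Myh6-tg hearts. Between the control groups these sums were higher in Myh6-ctl hearts, while the Slc25a37 share overlapped (difference 2.86 points, exact permutation p = 0.5, adjusted 0.5). Of 5 markers tested in EIIa-tg hearts 1 was called lower, against 8.3% of all genes. In Myh6-tg hearts 3 of 6 were lower, against 9.38% (5 with the block, against 11.2%). None was at 0 in all hearts, and the part of these markers in the share of Slc25a37 was not tested.

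**Figure D4:**
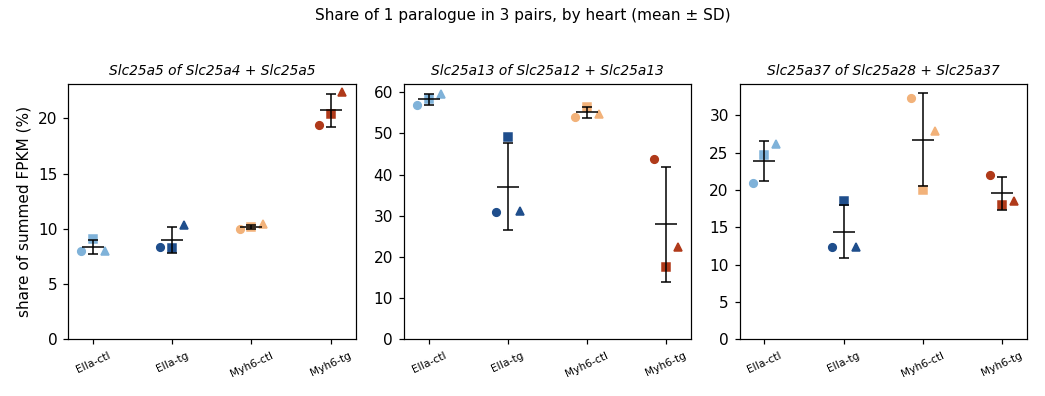
Share (%) of Slc25a5, Slc25a13 and Slc25a37 in the summed FPKM of their paralogue pair in each heart, with the mean and SD. The share of Slc25a5 is 19.4% to 22.3% in Myh6-tg hearts against at most 10.4% in all others, and the share of Slc25a13 is below the controls in both transgenic groups.

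Among the uncoupling-protein-like carriers Slc25a14, Slc25a27 and Slc25a30, 0 of 3 were called in either model, with 0 at an unadjusted p under 0.05 and 0 by DESeq2. Among the 6 tested members without a settled substrate, Slc25a35 had 16.4, 12.1 and 8.86 normalized CPM in Myh6-ctl and 7.13, 3.71 and 3.05 in Myh6-tg hearts (log2 fold change -1.43, SE 0.38, adjusted p = 0.0379). In the EIIa model it had 13.4, 15.4 and 14.4 in controls and 2.39, 8.98 and 6.95 in EIIa-tg hearts, without overlap and without a call. Slc25a46, an outer membrane member linked to mitochondrial shape, fell in EIIa-tg hearts, from 82.8, 72.8 and 75.0 to 51.6, 61.6 and 46.6 (log2 fold change -0.53, SE 0.12, adjusted p = 0.0284). In Myh6-tg hearts it had 69.1, 45.002 and 40.7 against 85.0, 64.5 and 58.2, which overlapped (adjusted p = 0.276).

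Family members under other symbols were few. Ucp2, an uncoupling protein of many non-muscle cells, rose in EIIa-tg hearts (log2 fold change 1.24, SE 0.21, adjusted p = 0.0167). In Myh6-tg hearts its log2 fold change was 1.09 (SE 0.35, adjusted p = 0.0666, and 0.0142 with the replicate number as a block). Ucp3, Mtch1 and Mtch2 were not called and Ucp1 did not pass the filter. Of 6 leukocyte markers tested, 4 were called higher in EIIa-tg hearts, against 8.65% of all genes. The whole list summed to 168 to 222 normalized CPM there against 86.8 to 128 in EIIa-ctl hearts. In the Myh6-tg hearts it summed to 392, 173 and 180 normalized CPM, and Ucp2 had 156, 363 and 301. The part of these markers in the level of Ucp2 was not tested.

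A list of import genes held the TIM22 route of carriers, outer membrane TOM subunits and Timm23 and Timm17a. It was called lower for 1 of 15 in EIIa-tg (Agk, a kinase that is also a TIM22 subunit, log2 fold change -0.67, adjusted p = 0.0496) and 4 of 15 in Myh6-tg hearts, against 8.3% and 9.38% of all genes. The latter were the small chaperones Timm8b (-0.83, adjusted p = 0.0251) and Timm10 (-1.002, adjusted p = 0.0291), Agk (-0.77, adjusted p = 0.0345) and Timm23, a subunit of the other inner membrane translocase (adjusted p = 0.049, and 0.0625 with the block). The median log2 fold change of the list was -0.18 in EIIa-tg and -0.53 in Myh6-tg hearts, and edgeR called 0 higher in either, with 1 higher at an unadjusted p under 0.05 in EIIa-tg and 0 in Myh6-tg hearts, and DESeq2 called 0.

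Of 22 other transport genes of the inner and outer membranes, 5 were lower in EIIa-tg hearts, and 4 were lower and 1 higher in Myh6-tg hearts, or 6 and 2 with the replicate number as a block. Over all genes 8.3% were lower in EIIa-tg hearts, and 9.38% were lower (11.2% with the block) and 8.96% higher in Myh6-tg hearts. Mpc2, a subunit of the pyruvate carrier, had a log2 fold change of -0.41 in EIIa-tg (adjusted p = 0.0473) and -1.33 in Myh6-tg hearts (adjusted p = 0.0126). The ABC transporters Abcb8 (-1.47, adjusted p = 0.0155) and Abcb10 (-1.17, adjusted p = 0.0267) fell in Myh6-tg hearts, and Sfxn3, a sideroflexin, rose (1.15, adjusted p = 0.0148). In EIIa-tg hearts Abcb10 (-0.82, adjusted p = 0.0233) and Letm1, an inner membrane cation exchanger (-0.73, adjusted p = 0.0264), fell.

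Markers of cell types moved in both models, and their counts stand beside 8.3% lower and 8.65% higher among all genes in EIIa-tg hearts and 9.38% and 8.96% in Myh6-tg hearts. In Myh6-tg hearts 4 of 8 cardiomyocyte markers were called lower (Myh6, Myl2, Myl3 and Tnni3), while Tnnt2 and Actn2 had log2 fold changes of 0.44 and 0.58 without a call. In EIIa-tg hearts 2 of 8 cardiomyocyte markers (Ryr2 and Myl3) and 3 of 6 endothelial markers were lower, and 2 of 7 fibroblast markers were higher. Summed endothelial markers were 712 to 800.1 normalized CPM in EIIa-tg against 933 to 1068 in EIIa-ctl hearts, and in Myh6-tg hearts 0 of 6 were called (2 lower with the block). The part of these markers in the carrier changes was not tested. Of 6 adipocyte markers, 3 could be tested in the EIIa and 4 in the Myh6 model, with 0 calls in either. In EIIa-tg hearts their median log2 fold change was 2.13, and 2 were higher at an unadjusted p under 0.05. Over all genes 5204 of 14908 had such an unadjusted p, in either direction. Of 4 smooth muscle markers, 1 was higher in EIIa-tg hearts, and 1 was higher and 1 lower in Myh6-tg hearts. Of 6 skeletal muscle markers, 3 could be tested, and 1 was higher and 1 lower in each model. Leukocyte markers gave 0 calls in Myh6-tg hearts, with 1 of 7 higher at an unadjusted p under 0.05.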

How the data were processed

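Heart RNA was sequenced as paired 150-base reads. Per the labels and the study's methods, reads were aligned with HISAT2 2.0.4 and assembled and quantified with StringTie 2.2.1. The methods name GRCm38, while the processing notes name 2 builds, so coordinates are those of GENCODE M21 (GRCm38), matched by gene ID. The authors deposited whole read counts per gene and FPKM, both made per heart. Whether strand was used in counting is not given in the sources used here.

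Counts were tested with edgeR 4.0.16 (R 4.3.3) by quasi-likelihood after filterByExpr and TMM scaling, with 3 hearts per group and Benjamini-Hochberg adjustment over all genes tested. P-values measure the spread between hearts. The difference between models was a contrast over all 12 hearts. A count of 3 corresponds to 0.0589 to 0.0782 CPM, and this floor covers counting error only. Shares of paralogue pairs were compared by exact permutation in scipy 1.17.1. On simulated counts for the Myh6 comparison, 8% of changes of log2 1 and 72.7% of changes of log2 2 were recovered, and for the EIIa comparison 68% and 93%. The Myh6 simulation changed 100 and 99 of 15298 genes, while the data gave 1435 lower and 1370 higher calls. The adjusted p depends on the share of changed genes, so these rates cannot give the power of the reported tests.

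No label gives a pairing of hearts. In the Myh6 model, deviations of same-numbered hearts correlated at 0.285, 0.184 and 0.173, against -0.239 to 0.0485 for other numbers. Replicate 1 of each group had 4224 to 7307 counts on Y-linked genes and all other hearts 0 to 2. Between replicates 2 and 3 of the Myh6 groups, hearts with different numbers correlated at 0.0485 and 0.0289. Whether hearts were paired by sex or by litter was not tested, and the block on replicate number is an alternative only. Same-numbered hearts of the other comparisons correlated at -0.0704 to 0.124. Alternatives were DESeq2 1.42.0, limma 3.58.1 on log2(FPKM + 1) or log2(FPKM + 0.1), other scalings, filters and covariates, and each heart left out in turn.

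The family itself was picked for study, and its substrate groups, the import and transport genes and the marker lists were chosen, with earlier results of these data known, although membership in the family went by symbol alone. Values were given for the 12 carriers with the highest mean FPKM, for DEGs, for genes called in the difference between models, for both members of 3 paralogue pairs, and for the leading genes of each other list. Further carriers were named after their values were seen. The transgene was not analysed here, and a member that is included in the counts of carriers is not reported here by itself.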

Additional observations from a re-analysis of the deposited data

Results flagged for a closer look

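Slc25a34, Slc25a42 and Slc25a26 stood out because their changes differed between the models in a direct test over 12 hearts (edgeR interaction contrast, change in Myh6-tg minus change in EIIa-tg). The difference was -2.20 on the log2 scale for Slc25a34, -1.62 for Slc25a42 and -1.24 for Slc25a26. The models also differ in age, Cre line and injection, and these cannot be told apart.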

How the results depend on the processing

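No carrier called by edgeR changed direction under any alternative in the comparison that called it, and carriers without a call were not followed in this way. In EIIa-tg hearts the numbers of carriers called lower (8) and higher (4) became 0 and 0 in a fit of all 12 hearts, with the replicate block and with limma on log2(FPKM + 1) without a filter, while limma with the filter called 5 lower at a pseudocount of 1 and 4 at 0.1. Over all genes, lower and higher calls numbered 51 and 176 in the fit of 12 hearts and 0 and 1 with the block. Unfiltered limma gave 0 and 1, and filtered limma called 667 genes lower at a pseudocount of 1 and 641 at 0.1. Deviations of same-numbered hearts correlated at 0.0602, -0.0704 and -0.05 in this model. DEGs numbered 2 with DESeq2 against 0. Over all genes DESeq2 gave 272 lower and 564 higher DEGs, against 0 of each. In Myh6-tg hearts 18 carriers were called lower in a fit of all 12 hearts and 6 with unfiltered limma, against 10, and 1 was higher in the fit of all 12 hearts and 3 with each limma setting, against 0. Over all genes, 2574 of 15929 were lower in the fit of 12 hearts and 777 of 20052 with unfiltered limma, against 1435 of 15298. Higher genes numbered 2475 in the fit of 12 hearts and 2616 to 3328 with limma, against 1370. DEGs numbered 11 with DESeq2, 9 in the fit of all 12 hearts, 7 with a covariate for Y-linked counts and 7 with the replicate block, against 4. Lower DEGs over all genes numbered 1238, 1107, 697 and 551 in that order, against 314. Apart from the calls named in the report, the replicate block changed no call of a carrier in this model. For the difference between models, DESeq2 called 5 lower against 3, DESeq2 and each limma setting called 1 higher against 0, and DEGs numbered 1 with the replicate block and 0 with unfiltered limma, against 2. Over all genes DESeq2 called 803 lower and 593 higher of 16311, against 361 and 263 of 15929. From counts, the difference in the share of Slc25a37 in EIIa-tg hearts was -14.7 points against -9.51, and that of Slc25a5 in Myh6-tg hearts 7.60 against 10.5, since counts are not scaled to length. The cause of the other shifts was not tested.

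Leaving out 1 heart gave 0 to 14 carriers lower, 0 to 4 higher and 0 to 3 DEGs in EIIa-tg hearts, 4 to 15 lower, 0 to 1 higher and 1 to 8 DEGs in Myh6-tg hearts, and 2 to 8 lower and 0 to 2 DEGs for the difference between models. Over all genes the ranges were 0 to 2110 lower and 0 to 1969 higher in EIIa-tg hearts. They were 411 to 2226 lower and 387 to 2043 higher in Myh6-tg hearts, and 167 to 1081 lower for the difference. The share of Slc25a13 then differed by -27.3 to -18.2 points in EIIa-tg and -35.1 to -22.0 in Myh6-tg hearts, that of Slc25a5 by -0.0812 to 0.966 and 9.72 to 11.2, and that of Slc25a37 by -11.6 to -8.39 and -10.6 to -4.40. Between the control groups these shares differed by -3.89 to -2.54, 1.61 to 2.17 and 0.0446 to 6.25 points. With 3 hearts per group and the spread among Myh6 hearts, a carrier without a call there may still differ. The simulated counts cannot say how often, since they held far fewer changed genes than the data called.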
